A study of Mus musculus with 2 samples.

Results

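The 9 genes Nrip1, Hdac4, Sp1, Pdgfra, Jag1, Il1rap, Dnpep, Rala and Septin2 have each been proposed as targets of miR-140, a microRNA abundant in cartilage, and are described here across every probe set that names them alone. They were picked by symbol from proposed targets, with earlier results of these data known though by no rule on measured values, and comprise 33 probe sets of 34945 and 9 genes of 18193 on the array. Proposals by the study behind these arrays were eligible too, so the list is not independent of these data. Messenger RNA was measured on Affymetrix whole-genome mouse arrays, using total RNA of rib chondrocytes, the cartilage-forming cells, grown in culture from mice aged 5 days. The wild-type group held 1 array and the miR-140 knockout group 1 array, and both carried a strain label naming C57BL/6 and CBA. Which part of the Mir140 locus was removed, and whether a culture pooled several animals, is not stated in the labels.

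MicroRNAs guide a silencing complex to messenger RNAs, mostly through pairing of the seed at their 5′ end with sites in the 3′ untranslated region, which lowers translation and often the level of the message. Loss of a microRNA is therefore commonly followed by a search for messages that stand higher, and such increases can be small, since repression may act on protein more than on RNA. Mir140 lies within Wwp2, a ubiquitin ligase gene, and its precursor gives rise to miR-140-5p and miR-140-3p.

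The precursor and the mature 3p strand are shown because they are part of the product that the knockout array lacks by its label. They are credited to RefSeq on GRCm38.p6, where the hairpin lies at chr8:107551244-107551313 on the plus strand and the 3p strand at chr8:107551288-107551308. In the hairpin the capitals mark miR-140-3p, which takes up bases 45 to 65 of 70, and in the mature strands they mark the seed, bases 2 to 8. Of 1738 mature mouse microRNAs in the RefSeq table, 2 had this seed, and the other is miR-497b (chr11:70234763-70234786, minus strand).
Mir140 hairpin: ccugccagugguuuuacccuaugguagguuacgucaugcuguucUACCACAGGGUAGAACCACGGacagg
mmu-miR-140-3p: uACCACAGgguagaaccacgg
mmu-miR-497b: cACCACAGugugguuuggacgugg
The hairpin's other mature strand and its seed are not shown, because the RefSeq data used held no entry for that strand. The 9 genes may thus have been proposed as targets through a seed that is not shown. Sites for the seeds of either strand in the 9 messages were not analysed here, and the mature strands were not measured.

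All values are signals on the log2 scale made by Robust Multichip Average (RMA), and each difference is the knockout array minus the wild-type array. With 1 array per group there is no spread between cultures, so no difference below has a test, a standard error or a replicate check. A gene was compared when the probe set with its highest mean signal had a log2 signal of 7 or more in either array, which left 9897 genes. This floor is a set threshold and not a measured background, and probe sets under it can still hold signal. Probe sets of a gene read the same RNA and are not replicates of a condition.

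The label of the cells was checked against cartilage markers. Col2a1, the main cartilage collagen, had a wild-type signal of 13.98 and a knockout signal of 11.98, and 13 of 14 chondrocyte markers were above the floor. All 13 were at least 2-fold lower in the knockout array (median -2.09), against 1.22% of all compared genes. Of 10 fibroblast and perichondrium markers above the floor, 7 were higher (median 0.21), where 40% of all compared genes were. Of 3 adipocyte markers above the floor, 2 were higher (median 0.51), with Lpl at 1.11, and of 3 smooth muscle markers 1 was higher (median -0.39). Markers of osteoblasts were under the floor in all 4 genes measured. The 3 macrophage markers above it had a median of -0.01, and the 1 endothelial and 1 skeletal muscle marker above it stood at -0.06 and 0.14. Fewer cells of a type and less RNA per cell cannot be told apart in such bulk RNA. The host gene Wwp2 had lower signal in the knockout array in its 4 probe sets above the floor, by -0.99 to -4.50. The arrays also differed in Xist (3.59 by its brightest probe set) and in the Y-linked Uty (-4.30), Eif2s3y (-4.68) and Kdm5d (-3.62). By these genes the sex make-up of the cultures differed, and the labels give no sex. The 18S ribosomal RNA probe sets differed as well (-0.31 to -1.28). The beta-actin control, whose gap between 3′ and 5′ probe sets reports RNA integrity, had a gap of 0.81 in wild type and 0.54 in knockout. The part of these features in the results below was not tested, and with 1 array per group it cannot be told apart from that of genotype.

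Most of the genes above the floor read slightly higher in the knockout array, and none of the 9 reached a 2-fold difference by its brightest probe set. Of the 9, 6 were above the floor, and their differences ran from -0.03 to 0.26 with a median of 0.07, against a median of -0.05 for all compared genes. Of the 6, 5 were higher, Sp1 among them by less than 0.01, whereas 40% of all compared genes were, and 6 of 6 lay above the median of all genes, which 50% do by construction. The count of higher genes is 6 of 6 after median centring, further quantile normalization or lowess centring, since Dnpep then turns positive, and the share of all compared genes that are higher is then 50%, 44.7% or 49.6%. None of the 6 reached 2-fold (1.7% of all compared genes did in either direction) and none reached 1.5-fold (5.11%). The other 3 genes, Hdac4, Jag1 and Il1rap, did not reach the floor.

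The same lean was seen over all probe sets. Of the 33, 25 were higher and 8 lower, against 47.7% higher among all named probe sets. Above the floor 12 of 15 were higher (44.3% of all such probe sets), and under it 13 of 18 (50.4%). Set against probe sets of like signal, in bins of 1 log2 unit, 28 of 33 lay above the median of their bin and 14 above its upper quartile, where 25% of all lie. These counts are not of independent items, since the 33 read the RNA of 9 genes. At least 16 of the 33 share the sequence they were designed from with another probe set of the same gene. For some others that sequence is not known. A single probe set, 1421916_at of Pdgfra, lay outside the central 95% of its bin, where 5.03% of all named probe sets do.

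**Figure D1:**
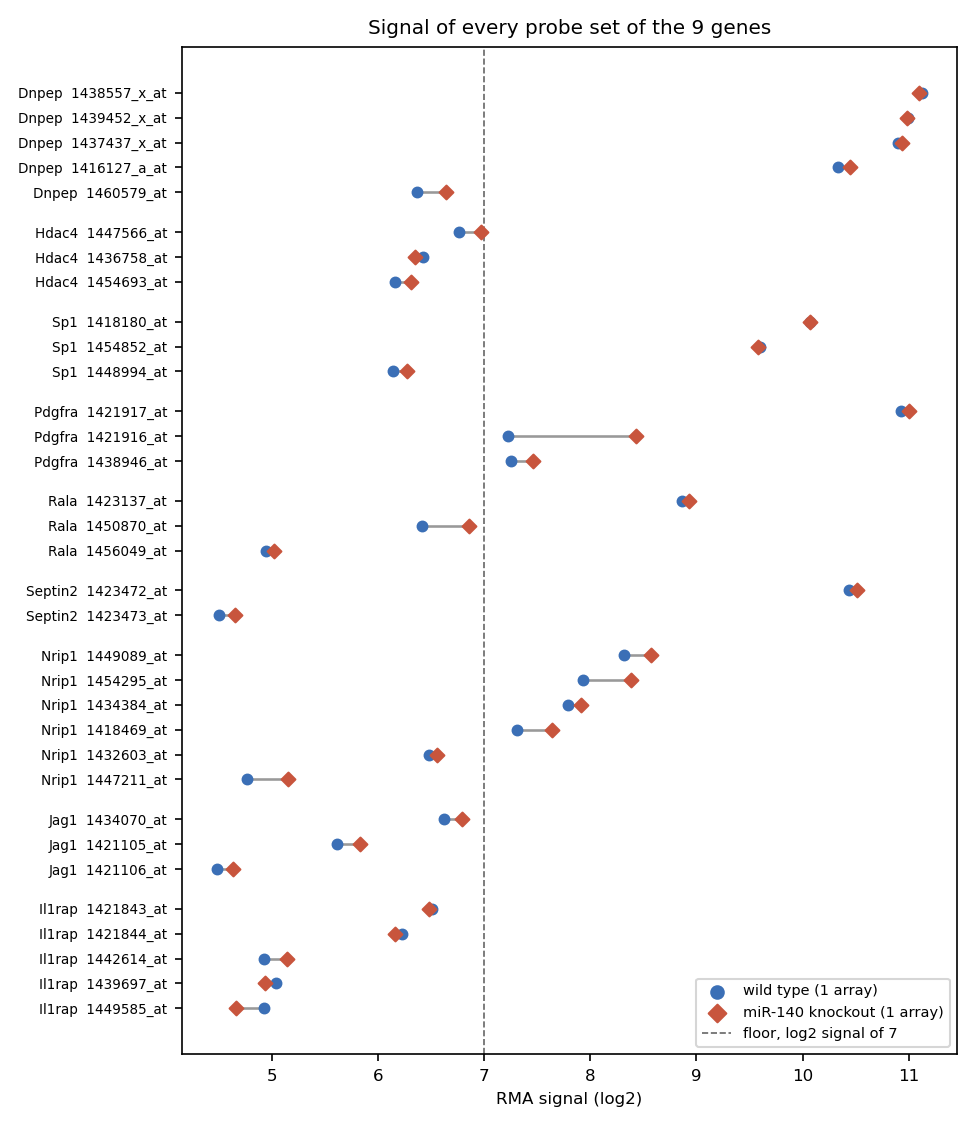
Log2 RMA signal of each of the 33 probe sets in the wild-type array (circles) and the miR-140 knockout array (diamonds), 1 array per group, ordered within each gene by mean signal. Both symbols nearly coincide for the bright probe sets of Dnpep and Sp1, all 6 Nrip1 probe sets are higher in the knockout, and Pdgfra 1421916_at shows the widest gap (7.23 and 8.43).

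**Figure D2:**
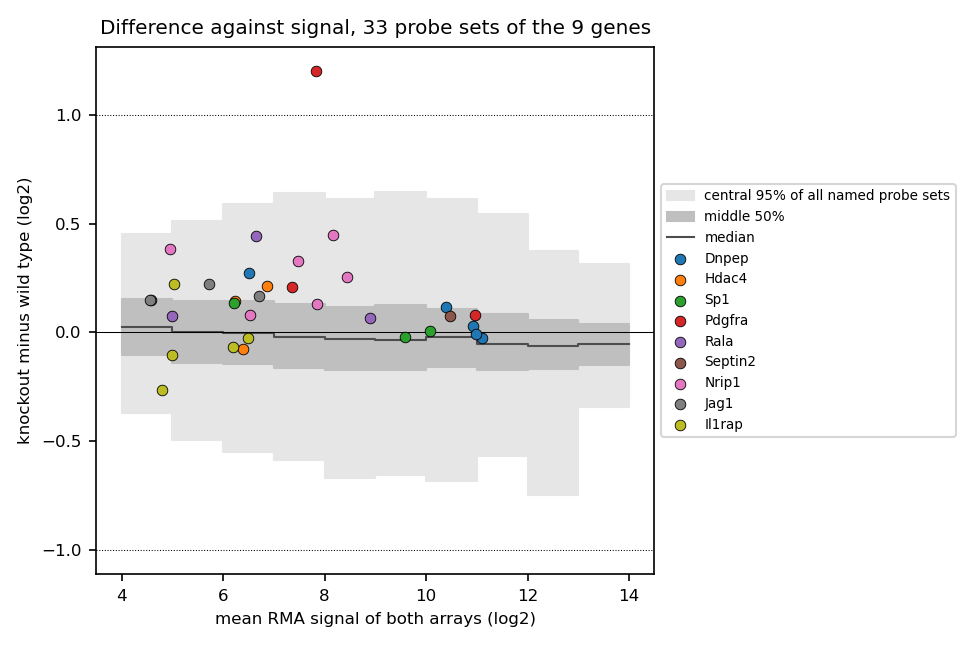
Knockout minus wild-type difference (log2) of each of the 33 probe sets against its mean signal (log2), over bands that hold the middle 50% and the central 95% of all named probe sets in bins of 1 log2 unit. Of the 33 points 28 lie above the median line of their bin, and 1, for Pdgfra, lies above the 95% band.

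Among the nuclear regulators, Nrip1 read higher in the knockout array in all 6 of its probe sets, by amounts from 0.08 to 0.45. It encodes a corepressor of nuclear receptors, also known as RIP140, that recruits the CtBP proteins and deacetylases. Its brightest probe set, 1449089_at, read 8.32 (wild type) and 8.58 (knockout). Probe set 1454295_at read 7.93 and 8.38, 1434384_at read 7.79 and 7.92, and 1418469_at read 7.31 and 7.64. The 4 differences above the floor were thus 0.26, 0.45, 0.13 and 0.33, every one of them higher in the knockout. The brightest corresponds to a 1.19-fold higher signal, and 91.4% of all compared genes had a lower difference. The other 2 probe sets, 1432603_at and 1447211_at, lay under the floor and differed by 0.08 and 0.39.

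How often a gene's probe sets share a direction was counted over the whole array. Of 482 genes with at least 4 probe sets above the floor, 65 (13.5%) were higher in all of them. In 22 (4.56%) every one was higher by at least 0.13, the lowest value of Nrip1 above the floor. Of 393 genes with at least 6 probe sets at any signal, 23 (5.85%) were higher in all. Nrip1 belongs to each of these groups, but the 0.13 cut was taken from Nrip1 itself and the probe set counts match its own. Its place in the 0.13 group was thus fixed in advance, and pairs of its probe sets share a source sequence. The difference of Nrip1 lay between 0.26 and 0.30 under the 6 settings tried, 1 of which takes the mean of all its probe sets (0.27).

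Of 18 corepressors and nuclear receptor partners above the floor, 5 were higher and 13 lower, where 40% of all compared genes were higher. Their median was -0.11, against -0.05 for all. By its brightest probe set none was 2-fold higher or lower (0.475% and 1.22% of all compared genes). The 4 probe sets of the receptor gene Nr3c1 above the floor ran from -0.21, its brightest, to 1.19. Ctbp1 and Ctbp2, the corepressors that NRIP1 binds, differed by -0.10 and -0.13. Esr1, the oestrogen receptor with which NRIP1 was first found to interact, read 7.33 and 7.01. The retinoic acid receptor gene Rarg (-0.23), Ppard, a fatty acid sensor (-0.26), and Ncoa3, a coactivator (-0.26), were among the 4 farthest from 0, all lower; a further Rarg probe set differed by 0.09.

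Hdac4 encodes a class IIa histone deacetylase that restrains MEF2 and RUNX2 and thereby the hypertrophy of chondrocytes. It was proposed early as a miR-140 target, and its signal on these arrays was low. Probe set 1447566_at came nearest to the floor, with a wild-type value of 6.76 and a knockout value of 6.97. Probe set 1436758_at read 6.42 and 6.35, and 1454693_at read 6.16 and 6.31. The 3 differences, 0.21, -0.08 and 0.15, do not share a sign, so no direction is given for Hdac4.

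Among other class IIa deacetylases Hdac5 stood at -0.12 and Hdac7 at -0.03, while Hdac9 was under the floor. Of the genes for the MEF2 factors, whose activity these enzymes repress, Mef2a stood at 0.22 and Mef2d at 0.04. Mef2c was under the floor (6.04 and 6.41). In the wider list of class IIa deacetylases, MEF2 factors, cofactors, kinases and 14-3-3 proteins, 7 of 19 were higher and 12 lower (median -0.02). Of all compared genes 40% were higher. None of the 19 reached 2-fold (1.7% of all compared genes did). The farthest were Camk4 (-0.41, with a knockout signal of 6.69 under the floor) and Camk2d (-0.32; probe sets from -0.32 to 0.09), both kinases. The 14-3-3 genes Ywhae (-0.25) and Ywhag (-0.22) followed, and the probe sets of Ywhag ran from -0.22 to 0.36.

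Sp1 encodes a zinc finger transcription factor that binds GC-rich promoter boxes in many tissues. Its brightest probe set, 1418180_at, read 10.07 in both arrays, a difference of 0.00. Probe set 1454852_at read 9.60 and 9.58, a difference of -0.02. These values placed Sp1 closest to 0 of the 6 genes above the floor, and the range between its probe sets above the floor was 0.03, with a smaller range in 5.26% of genes that have at least 2. The sign of the brighter is thus not shared by the other, as in 46.7% of such genes. Its dim probe set, 1448994_at, differed by 0.13 under the floor. Of the related factors only Sp3 (-0.23) and Sp6 (0.17) were above the floor among 6 measured, in opposite directions.

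Of the signalling genes, Pdgfra had the probe set farthest from 0 and the widest range between probe sets, while its brightest probe set differed by 0.08. It encodes the alpha receptor for platelet-derived growth factor, a tyrosine kinase of mesenchymal and perichondrial cells. That brightest probe set, 1421917_at, read 10.93 (wild type) and 11.01 (knockout). Probe set 1421916_at read 7.23 and 8.43, a difference of 1.20 (2.30-fold higher). Probe set 1438946_at read 7.25 and 7.46, a difference of 0.21. All 3 were higher in the knockout array, as in 15.7% of genes with exactly 3 probe sets at any signal. Their amounts span 1.12 on the log2 scale.

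The bright and the discordant Pdgfra probe sets were designed from the same source sequence. A range of at least 1.12 between probe sets above the floor was found in 58 of 3838 genes with at least 2 of them (1.51%), where the median range was 0.25. Among all probe sets above the floor, 0.902% were at least 2-fold higher. The size of the Pdgfra difference therefore depended on the probe set, at 0.08 by the brightest and 0.50 by the mean of all 3. Fibroblast and perichondrium markers, which did not include Pdgfra, were higher for 7 of 10 genes in the same array, where 40% of all compared genes were. Col3a1 stood at 1.38 and Lum at 0.96, while Postn (-1.26), Fn1 (-0.41) and Dcn (-0.17) were lower. The part of these markers in the Pdgfra values was not tested.

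**Figure D3:**
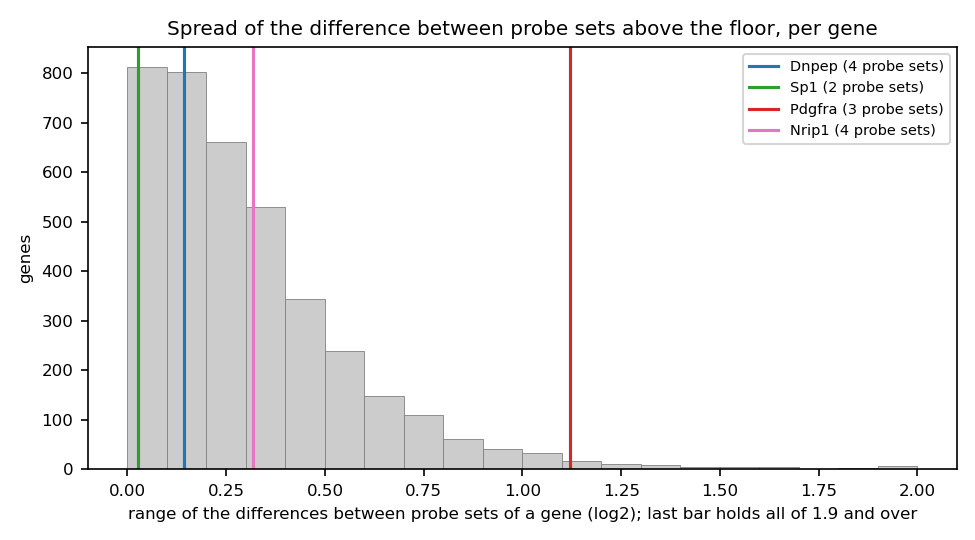
Number of genes (of 3838 with at least 2 probe sets above the floor) by the range of their probe sets' knockout minus wild-type differences (log2), with the 4 described genes that have such a range as vertical lines. Sp1 (0.03), Dnpep (0.14) and Nrip1 (0.32) lie in the bulk, and Pdgfra (1.12) lies in the tail. A range over more probe sets can be wider for that reason alone, and the genes were not split by number of probe sets.

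The sister receptor Pdgfrb read 11.56 and 11.57, a difference of 0.01. Of the ligands, Pdgfc stood at 0.63, with its probe sets above the floor at 0.55 and 0.63, while Pdgfa (-0.03) and Pdgfd (0.00) were near 0 and Pdgfb was under the floor. Pdgfrl, a receptor-like gene without a kinase, read 9.11 and 9.96, a difference of 0.84 (1.79-fold higher). Over the 13 ligands, receptors and adaptors above the floor, 5 were higher and 8 lower with a median of -0.03, where 40% of all compared genes were higher. None reached 2-fold (1.7% of all compared genes did). Pik3r1, a subunit of phosphoinositide kinase, stood at -0.37 (probe sets from -0.37 to 0.19), and the kinase gene Src stood at -0.21.

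Jag1 encodes a membrane ligand of the Notch receptors. It was under the floor throughout: 1434070_at read 6.62 and 6.79, 1421105_at read 5.61 and 5.84, and 1421106_at read 4.48 and 4.63. All 3 differences were higher, by 0.17, 0.22 and 0.15. Of 2366 genes with 3 probe sets, 372 (15.7%) were higher in all 3 at any signal. With low values raised to 7 the difference of the brightest Jag1 probe set was 0.

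Within the Notch pathway 2 of 20 genes above the floor were at least 2-fold lower by their brightest probe set and none 2-fold higher. Of all compared genes 1.22% were at least 2-fold lower. The 3 probe sets of Adam17 above the floor ran from -0.05, its brightest, to 1.05. Notch1, a receptor, read 7.71 and 6.61, a difference of -1.10 that becomes -0.71 when low values are raised to 7. Dlk1, a non-canonical ligand also known as a preadipocyte factor, read 9.19 and 8.10 (-1.09). The receptor Notch2 was equal in both arrays at 9.72. Over the list 4 were higher, 15 lower and 1 equal, with a median of -0.06. Of all compared genes 40% were higher, with a median of -0.05.

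Target genes of the pathway gave no common picture, since Hes1 stood at 0.22 (6.82 and 7.04) while Hey1, Hey2, Heyl and Hes5 were under the floor. Aph1a, a subunit of gamma-secretase, stood at 0.74, but its probe sets above the floor ran from -0.30 to 0.74. Maml1, a coactivator of the Notch complex, stood at -0.35.

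Il1rap encodes the accessory chain that the interleukin-1 receptor needs in order to signal. Its 5 probe sets read between 4.93 and 6.51 in wild type and between 4.66 and 6.48 in the knockout, all under the floor. The brightest, 1421843_at, differed by -0.02, and the others by -0.07, -0.10, 0.22 and -0.26. With 4 lower and 1 higher at this signal, no direction is given.

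The partner receptor Il1r1 was above the floor at 7.95 and 8.03, a difference of 0.08, while the ligands Il1a and Il1b were under it. Of 16 genes of interleukin-1 family signalling above the floor, 9 were higher and 7 lower (median 0.02), where 40% of all compared genes were higher. None reached 2-fold (1.7% of all compared genes did). Tab2, an adaptor of the TAK1 kinase, stood at -0.41. Il1rn, the receptor antagonist, stood at 0.40, with its 3 probe sets above the floor between 0.31 and 1.10. Irak3 (0.17) and Irak1 (0.14; probe sets from -0.57 to 0.32), which act below the receptor, were nearer to 0.

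Of the enzyme and cytoskeletal members, none differed by more than 0.08 by its brightest probe set. Dnpep encodes aspartyl aminopeptidase, which removes acidic residues from the ends of peptides and has been linked to BMP signalling in cartilage. Its brightest probe set, 1438557_x_at, read 11.12 (wild type) and 11.10 (knockout). Probe sets 1439452_x_at (10.99 and 10.98) and 1437437_x_at (10.90 and 10.93) were as close. The fourth above the floor, 1416127_a_at, read 10.33 and 10.45, a difference of 0.12.

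The Dnpep differences above the floor thus ran from -0.03 to 0.12, where the median range over genes was 0.25, and the gene's sign depended on the processing. It was -0.03 by the brightest probe set and turned positive in 5 of 6 other settings, up to 0.27 where only 1460579_at, a probe set under the floor (6.37 and 6.64), was left. The 4 bright probe sets bear letter suffixes, which Affymetrix gives to sets that can match several transcripts.

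Of 16 other aminopeptidases, 6 were higher and 10 lower (median -0.02), where 40% of all compared genes were higher. None reached 2-fold (1.7% of all compared genes did). Enpep, which cleaves the same acidic residues, read 9.87 and 10.67 (0.81, 1.75-fold higher). Anpep stood at 0.60, with a wild-type signal of 6.43 under the floor, Rnpepl1 at -0.32 and Blmh at -0.28 (probe sets from -0.28 to 0.20).

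Among 8 genes that respond to BMP signalling, 2 were higher and 6 lower, with a median of -0.17, where 40% of all compared genes were higher. Id4, an inhibitor of helix-loop-helix factors, read 9.77 and 8.06 and was the 1 gene past 2-fold, against 1.22% of all compared genes that were 2-fold lower. The 3 Id4 probe sets ran from -1.70 to -0.86. Id1 stood at 0.38, Id2 at -0.37 and Atoh8 at -0.24.

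Rala encodes a small GTPase of the RAS family that steers vesicle delivery through the exocyst. Its brightest probe set, 1423137_at, read 8.87 and 8.93, a difference of 0.07. Probe set 1450870_at read 6.41 and 6.86 (0.44), just under the floor, and 1456049_at read 4.94 and 5.02 (0.07). All 3 were higher, as in 15.7% of genes with exactly 3 probe sets at any signal. The pair at 0.07 and 0.44 was designed from the same source sequence.

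The close relative Ralb read 9.64 and 9.85, a difference of 0.20. Rgl1, an exchange factor for Ral proteins, stood at 0.48, but a further probe set stood at -0.13. In the list of Ral regulators, effectors and exocyst subunits 5 of 15 were higher and 10 lower (median -0.04), where 40% of all compared genes were higher. None reached 2-fold (1.7% of all compared genes did). Ralgapb, a GTPase-activating subunit, stood at -0.16 and the exocyst gene Exoc6b at -0.22.

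Septin2 encodes a GTP-binding filament protein of the cell division ring and of ciliary bases. Its bright probe set, 1423472_at, read 10.44 and 10.52, a difference of 0.08, and its dim one, 1423473_at, read 4.51 and 4.65 (0.15). Of 7 other septins above the floor, 2 were higher and 5 lower, where 40% of all compared genes were higher. Their median was -0.25, and none reached 2-fold (1.7% of all compared genes did). Septin10 stood at -0.46, Septin9 at -0.41 and Septin11 at -0.38 (probe sets from -0.38 to -0.04). Septin6 stood at 0.31, with probe sets of 0.31 and 0.41, the farthest in the higher direction.

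**Figure D4:**
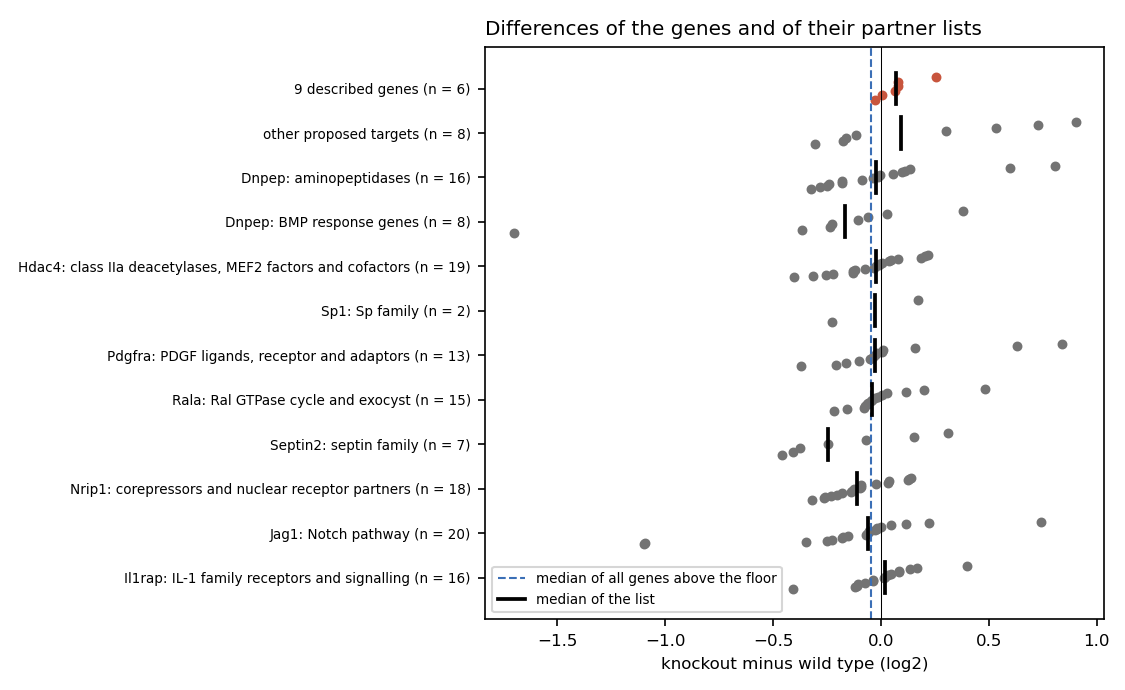
Knockout minus wild-type difference (log2) of each gene above the floor in the 9 described genes and in 11 other lists (the other proposed targets and the partner lists, each labelled with its gene), with the list median (black bar) and the median of all compared genes (dashed line, -0.05). By the brightest probe set of each gene, the described genes span -0.03 to 0.26. The points farthest from 0 are Id4 (-1.70), Notch1 (-1.10), Dlk1 (-1.09) and Bmp2 (0.90).

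Set beside the other 9 genes proposed as miR-140 targets, those described here covered a narrow span by the brightest probe set of each gene. The 8 others above the floor ran from -0.31 to 0.90 with a median of 0.09, 4 higher and 4 lower, and 2 of them, Bmp2 (0.90) and Mmp13 (0.73), were at least 1.5-fold higher, against 1.56% of all compared genes. Of all compared genes 40% were higher by any amount. Over all probe sets above the floor, the described genes ran from -0.03 (Dnpep) to 1.20 (Pdgfra). The others ran from -0.53 (Cxcl12) to 1.04 (Igfbp5). Whether the lists differ was not tested.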

How the data were processed

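Log2 signals were deposited by the authors for 2 arrays (1 wild type, 1 miR-140 knockout, grouped by sample title) after Robust Multichip Average, per the labels' design text, run in Affymetrix Expression Console 1.1, per the submitters' processing notes. This method scales arrays to a common distribution, removing any difference shared by most genes, and compresses differences of dim probe sets. Of 45101 probe sets, 34945 had a single symbol in the platform annotation; 64 were controls, 932 had several symbols and 9160 none. The 9 members were matched by symbol and found in RefSeq by Entrez identifier. The probe set with the highest mean stood for a gene, and the floor was a log2 signal of 7. Differences were counted at 2-fold and 1.5-fold, in Python 3.11.15 with pandas 2.3.3. The counting code was tested on simulated data of an assumed noise, with mostly planted changes past 2-fold. That check does not bear on differences as small as those of the members. No coordinates of genes are given because the array values name no build. The members and the 11 other lists (206 symbols, 189 with a probe set) were chosen with earlier results of these data known. Named from each list were up to 4 genes above the floor farthest from 0, any past 2-fold and, chosen after their values were seen, further relatives of a member. The number of arrays limits the precision.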

Additional observations from a re-analysis of the deposited data

How the results depend on the processing

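No paired analysis was possible because each group has 1 array. The 9 other settings were 3 scalings (median centring, a second quantile normalization, lowess centring over a span of 0.2), 3 floors (6, 8 or none), averaging of a gene's probe sets, leaving out probe sets with a letter suffix, and raising low values to 7. Across them 5 to 7 genes were higher, of 5 to 9 counted, the median stayed between 0.07 and 0.12, and no gene passed 2-fold, nor 1.5-fold with the brightest probe set. In the same settings 39.9% to 50% of all compared genes were higher. Their median lay between -0.05 and 0. Of 54 differences (9 genes in the 6 settings other than the floors), 46 moved by at most 0.1 and 8 by more. The sign turned in 7, for Dnpep (5) and Il1rap (2), both within 0.03 of 0 as first given. Hdac4 and Jag1 stood at 0 with low values raised to 7. Low signal, under the floor, limits Hdac4, Jag1 and Il1rap.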
